A study of Mus musculus with 2 samples.

Results

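The cells described here are macrophages of the small intestine of Ccr2-knockout mice that held many transcripts of the metallothionein genes Mt1 and Mt2. They were chosen by 3 conditions on their own counts, so the values behind those conditions describe how the cells were picked and are not findings. A cell had at least 200 detected genes and at most 10% of its unique molecular identifiers (UMIs, each standing for 1 captured transcript) from mitochondrial genes. The complement genes C1qa, C1qb and C1qc, which mark tissue macrophages, made up at least 0.5% of its UMIs, and Mt1 and Mt2 together had at least 3 UMIs. These conditions left 616 members among 2208 gated knockout cells, out of 2774 cells in the knockout library and 5828 in the series. The gated knockout cells outside the set comprised 819 without a UMI of Mt1 or Mt2, called Mt-zero cells here, and 773 with 1 or 2. In the wild-type library 2639 cells passed the gate, of which 777 reached 3 UMIs and 872 had none.

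The study profiled sorted intestinal macrophages with droplet single-cell RNA sequencing (10x Genomics 3′ chemistry, version 2) in 1 library of CCR2-/- animals and 1 of WT animals, each from 3 to 4 intestines combined before the sort. Ccr2 encodes the chemokine receptor through which monocytes leave the bone marrow and reach tissue, and CCR2-/- animals lack it in every cell. The knockout mice were of a JAX strain bred in-house, and the WT mice were C57BL/6J males from Janvier, so genotype, source of the animals and library cannot be told apart. Age was not among the details used here, nor was the sex of the knockout animals. In both groups the epithelium was stripped, the tissue was digested with Liberase TL, and live CD45+ CD11b+ MHCII+ CD64+ cells were sorted that were negative for CD3, TCRb, B220, SiglecF, Ly6C and Ly6G. The WT cells ran on 2 lanes, told apart here by the suffix of the cell barcode. Values of the lanes, which are not replicates, are given beside the WT values that the text compares with the knockout.

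Metallothioneins are small, cysteine-rich proteins that bind zinc and copper and buffer the free metal inside the cell. Zinc raises their transcription through the metal-sensing factor MTF-1, which binds metal response elements before the gene, and glucocorticoids and oxidative stress induce them as well. In macrophages they take part in the handling of zinc and copper during inflammation and infection.

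Mt1 (ENSMUSG00000031765) and Mt2 (ENSMUSG00000031762) are neighbouring protein-coding genes on the plus strand of chromosome 8 in GRCm38, Mt1 from 94179082 to 94180327 and Mt2 from 94172664 to 94173568. The sequences before their starts are shown because members took both genes together by rule yet held them in very unequal amounts. They come from RefSeq (GRCm38.p6), are printed 5′ to 3′ on the plus strand, and end before the first annotated base of the gene. Capitals mark every match to the core of the metal response element, written as TGCACNC or TGCGCNC and searched on both strands, with no overlapping matches.
Mt1 upstream, chr8:94178839-94179081: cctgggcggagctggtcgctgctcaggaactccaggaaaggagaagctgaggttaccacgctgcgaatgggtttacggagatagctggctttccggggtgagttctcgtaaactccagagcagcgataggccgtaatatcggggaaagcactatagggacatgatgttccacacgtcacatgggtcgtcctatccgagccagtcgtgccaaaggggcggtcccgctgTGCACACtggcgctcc
Mt2 upstream, chr8:94172368-94172617: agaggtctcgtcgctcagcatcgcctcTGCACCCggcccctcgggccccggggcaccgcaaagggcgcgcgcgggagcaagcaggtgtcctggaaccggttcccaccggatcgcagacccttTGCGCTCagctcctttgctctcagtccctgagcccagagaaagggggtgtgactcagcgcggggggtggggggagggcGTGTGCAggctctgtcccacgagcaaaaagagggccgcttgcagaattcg
The printed stretches hold 1 match before Mt1 and 3 before Mt2. The full RefSeq window of 300 bases, whose last bases are not printed, holds 3 matches for Mt1 and 4 for Mt2. The unprinted Mt1 matches start at 94179091 and 94179109, past the annotated start of the gene, and the unprinted Mt2 match starts at 94172622, before it. The printed counts thus depend on where printing stops and are not a difference between the genes. Of 27025 genes with such a window 28.2% held at least 1 match and 2.27% held 3 or more. A match is a run of letters and not evidence of binding.

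The libraries differed in depth. Gated knockout cells had a median of 2555.5 UMIs and gated WT cells 6368, with 6439 and 6162 in the WT lanes. Ccr2 itself followed the labels, with 31 UMIs or 4.97 counts per 1000000 UMIs (CPM, 95% exact Poisson interval 3.38 to 7.06) in gated knockout cells against 5557 UMIs or 299 CPM (291 to 307) in gated WT cells. The WT lanes shared 5 barcode sequences, WT lane 1 shared 6 with the knockout, and WT lane 2 shared 0 with the knockout. Every interval here covers counting error only. With 1 library per genotype, and with cells of a library not being replicates, no test was possible and no p-value is given.

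The macrophage label held for the members. Csf1r, the receptor for the growth factor that macrophages depend on and no gene of the gate, was found in 94.3% of the members used in the gene comparison. Cx3cr1, the fractalkine receptor gene of gut macrophages, was found in 88.0%, and Adgre1, which encodes the surface antigen F4/80, in 69.7%. Less abundant markers were found in fewer members, Cd68 in 36.3%, the efferocytosis receptor gene Mertk in 27.4% and Fcgr1, which encodes the sorted antigen CD64, in 26.6%.

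Metallothionein transcripts were more abundant in gated knockout cells than in gated WT cells, and far more so for Mt2 than for Mt1. The few cells with lymphoid markers under the C1q limit, described further on, had the same order of libraries in level. Mt1 stood at 811 CPM in the knockout (789 to 833) and at 323 CPM in WT (315 to 332), with 317 and 338 CPM in the WT lanes. Mt2 stood at 64.6 CPM in the knockout (58.5 to 71.3, from 403 UMIs) and at 3.12 CPM in WT (2.37 to 4.04, from 58 UMIs), with 3.25 and 2.84 CPM in the lanes. The knockout value lay outside the range of the lanes for both genes, but the lanes are parts of the same WT sample and do not measure spread between libraries or animals. Mt2 supplied 7.38% of the metallothionein UMIs of gated knockout cells (95% Clopper-Pearson interval 6.70% to 8.11%) and 0.956% of those of gated WT cells (0.727% to 1.23%).

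The share of cells at 3 or more UMIs did not show this difference until depth was made equal. It was 27.9% of gated knockout cells (26.0% to 29.8%) and 29.4% of gated WT cells (27.7% to 31.2%), with 28.6% and 31.3% in the lanes. After each cell was thinned at random to 1000 UMIs, which left out 152 shallower knockout cells and 0 WT cells, 9.82% of knockout cells (8.57% to 11.2%) and 2.08% of WT cells (1.57% to 2.70%) reached 3 UMIs, with 1.98% and 2.32% in the lanes. Cells in which Mt1 and Mt2 made up at least 0.1% of all UMIs were 26.6% of gated knockout cells and 8.37% of gated WT cells. The share at equal depth and the share by percentage of UMIs thus had the same order as the transcript levels, and the share by 3 UMIs at full depth did not. The share by percentage still depends on depth. Among cells with 1 metallothionein UMI the highest share was 0.131% in the knockout and 0.0771% in WT, so shallow knockout cells could pass with 1 UMI.

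**Figure D1:**
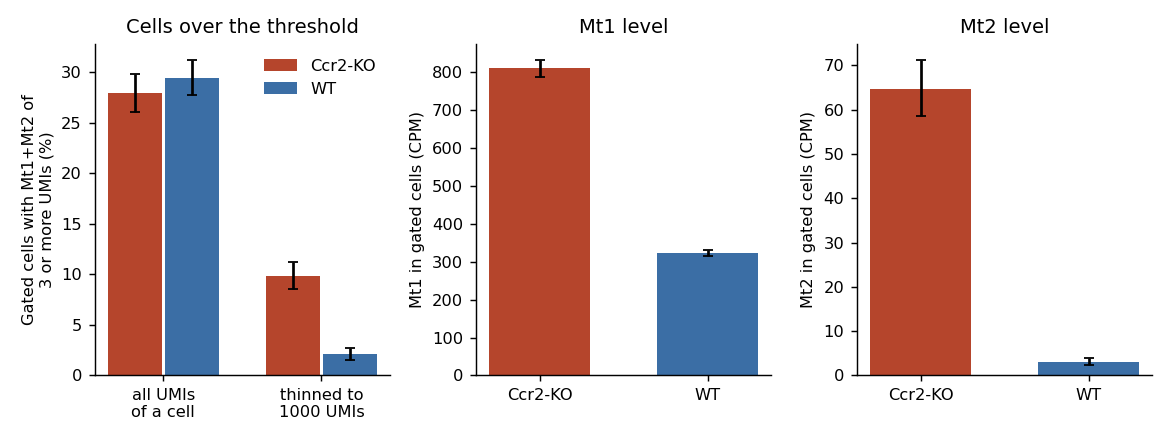
Share of gated cells with 3 or more UMIs of Mt1 and Mt2 (left, %, before and after thinning to 1000 UMIs) and the levels of Mt1 (middle) and Mt2 (right) in CPM, for the Ccr2-KO and WT libraries. Bars are values of 1 library each and error bars are 95% Clopper-Pearson (left) or Poisson intervals. The shares are close at full depth, 27.9% and 29.4%, and apart at equal depth, 9.82% and 2.08%.

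As a measure of background, cells under the C1q limit with 3 or more UMIs of lymphoid markers were examined, with the reservation that metallothioneins are widely expressed and that no cell type in these libraries is known to lack them. In 57 such knockout cells (median 2414 UMIs) 40.4% held Mt1 and 15.8% held Mt2 (7.48% to 27.9%), against 61.8% and 8.11% of gated knockout cells. In 48 such WT cells (median 7725 UMIs) 47.9% held Mt1 and 12.5% held Mt2, against 66.7% and 1.52% of gated WT cells. Levels in the lymphoid-marker cells were also higher in the knockout than in WT, Mt1 at 293 against 150 CPM and Mt2 at 121 against 18.7 CPM. The higher knockout level was thus not particular to the gated macrophages. At 1000 UMIs 0 of 56 lymphoid-marker knockout cells reached the 3 UMIs of the rule, and the upper bound of that share was 6.38%. The share of all gated knockout cells with an Mt2 UMI was thus no higher than in the lymphoid-marker cells and is not read as expression by itself, while its spread among the macrophages, given further on, ran from 0% to 42.1%.

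Among the members the load was uneven. The median was 5 metallothionein UMIs, the quartiles were 3 and 8, and the highest cell had 55, between 0.0397% and 1.37% of a cell's UMIs with a median of 0.157%. At the threshold, the 167 cells with 3 UMIs had a median depth of 3197 UMIs and a metallothionein share of 0.0938%, and the 272 cells just outside it with 2 UMIs had 2806.5 UMIs and 0.0713%. Members were deeper than Mt-zero cells, with medians of 3558 and 1829 UMIs, as a limit on absolute counts selects for.

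Mt1 was nearly universal in the members and Mt2 was not. Mt1 had 4049 UMIs and was missing from 1 member, which the rule had admitted through Mt2. Mt2 had 365 UMIs in 143 members, or 23.2% (19.9% to 26.8%), and was not found in the other 473. Mt2 was concentrated in the cells with the greatest load: it was found in 13.5% (9.66% to 18.2%) of the 266 members with 3 to 4 UMIs, in 18.7% (13.8% to 24.4%) of the 225 with 5 to 9, and in 52.0% (42.9% to 61.0%) of the 125 with 10 or more. Between the same groups the Mt2 level was 53.4, 70.7 and 494 CPM, while Mt1 was 966, 1582 and 3492 CPM. The share of Mt2 among metallothionein UMIs was 5.24%, 4.28% and 12.4%. Mt2 counts toward the load, so part of this order follows from the grouping. In WT cells with 10 or more UMIs, 8.57% (3.99% to 15.6%) of 105 cells held Mt2, at 21.1 CPM and 1.37% of metallothionein UMIs, although these cells were deeper (median 9478 against 3929 UMIs).

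To compare the members with Mt-zero cells at equal depth, each member was paired with the Mt-zero knockout cell closest in UMIs left after the genes of the rule (Mt1, Mt2, the C1q genes and 13 mitochondrial genes) were removed. A pair was found for 383 members, or 62.2%, because Mt-zero cells of high depth were few. The 233 members without one were deeper, with a median of 4521 UMIs, and do not enter the gene comparison below. The paired cells were alike in median depth (2917 and 2868 UMIs), mitochondrial share (3.96% and 4.04%), C1q share (0.814% and 0.877%) and detected genes (1233 and 1246). UMIs were summed over each side and scaled to CPM of what was left after the rule's genes, and log2 ratios (members over Mt-zero cells) were formed with a pseudocount of 1 CPM.

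Few genes differed by 2-fold or more between the sides, and most that did were higher in the members. Of 2854 genes with a mean of at least 50 CPM, 14 were at least 2-fold higher (0.491%) and 3 at least 2-fold lower (0.105%). The median log2 ratio over all genes was -0.02 and the SD over genes 0.28, with 1328 positive and 1526 negative ratios. Of the 14, F13a1, Fcrls and Cd163 belong to the resident macrophage list and Ccl2 to the inflammatory list, and of the 3, Rsad2 belongs to the interferon list.

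F13a1, the catalytic subunit of coagulation factor XIII and a gene of resident macrophages, had the largest ratio. It lies on the minus strand of chromosome 13 from 36867178 to 37050244. It had 135 UMIs or 119 CPM in the members (99.7 to 141) and 36 UMIs or 31.7 CPM in the Mt-zero cells (22.2 to 43.9), a log2 ratio of 1.87 (1.37 to 2.48). The intervals do not overlap. A UMI of F13a1 was found in 18.5% of the members (14.8% to 22.8%) and in 4.18% of the Mt-zero cells (2.41% to 6.70%), so more cells held it and not only more UMIs.

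Bmp2, a secreted ligand of the bone morphogenetic protein family, and Vcam1, an adhesion molecule bound by leukocyte integrins, came next. Bmp2 (chromosome 2, 133552159 to 133562885, plus strand) had 186 against 66 UMIs, a log2 ratio of 1.48 (1.08 to 1.92), and was found in 18.8% and 8.36% of cells. Vcam1 (chromosome 3, 116109949 to 116129688, minus strand) had 358 against 142 UMIs, a log2 ratio of 1.33 (1.05 to 1.62), and was found in 29.0% and 15.1% of cells. Both were thus present in a minority of the members, more often than in the Mt-zero cells.

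The scavenger receptor genes Fcrls (log2 1.16, 0.73 to 1.64) and Cd163 and the endocytic adaptor gene Dab2 were also higher. Cd163, the receptor for haemoglobin bound to haptoglobin, had 268 against 130 UMIs (log2 1.04, 0.74 to 1.36). Dab2 was held by most members, 62.7% against 40.2% of Mt-zero cells, at a log2 ratio of 1.04 (0.86 to 1.24). Of the 14 genes listed for resident macrophages, 9 were measured at the expression limit, 3 of them at least 2-fold higher (F13a1, Fcrls and Cd163) and 0 lower, with a median of 0.59 beside -0.02 over all genes. At 1000 UMIs per cell, with all Mt-zero cells, this median was -0.15, and within clusters, as described further on, it was near 0. The list was not uniform: the chemokine gene Pf4 was at 0.88 and the mannose receptor gene Mrc1 at 0.59, whereas Timd4, a receptor for phosphatidylserine and a mark of long-lived gut macrophages, was lower at -0.48 (-0.76 to -0.20), Stab1 at -0.41 and Cd4 at -0.23 (-0.50 to 0.04).

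Alox5ap and Ptafr were also past 2-fold. Alox5ap, whose product hands arachidonic acid to 5-lipoxygenase for leukotriene synthesis, had a log2 ratio of 1.13 (0.66 to 1.65) and was found in 19.3% against 10.2% of cells. Ptafr, the receptor for platelet-activating factor, had 1.12 (0.74 to 1.55) and was found in 28.5% against 16.4%. The remaining genes past 2-fold with a known role in macrophages were Marcksl1, an actin- and membrane-associated protein gene (1.17), the metalloproteinase inhibitor gene Timp2 (1.12), Socs3, a feedback inhibitor of cytokine signalling (1.11), and the scaffold protein gene Ahnak (1.09).

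The genes Ccl2, Ccl7 and Ccl12, which encode ligands of the deleted receptor, were each higher in the members. Ccl2 (chromosome 11, 82035571 to 82037453, plus strand) stood at 1035 CPM in the members (976 to 1096) and 498 CPM in the Mt-zero cells (457 to 540), a log2 ratio of 1.05 (0.91 to 1.20), and was found in 52.7% and 35.0% of cells. Ccl7 was at 1572 against 836 CPM (log2 0.91) and Ccl12 at 939 against 515 CPM (log2 0.86). Ccl8 had 0.86 and Nfkbia, the inhibitor of NF-kB and one of its targets, 0.72 (0.58 to 0.87). Other inflammatory genes stood elsewhere: Il1b was at -0.19, Ptgs2 at -0.21, Cxcl16 at -0.33 and the anti-inflammatory cytokine gene Il10 at -0.69 (-1.16 to -0.25). Over the 21 measured of 28 genes of this list, 1 was past 2-fold higher, 0 lower, and the median was 0.15.

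**Figure D2:**
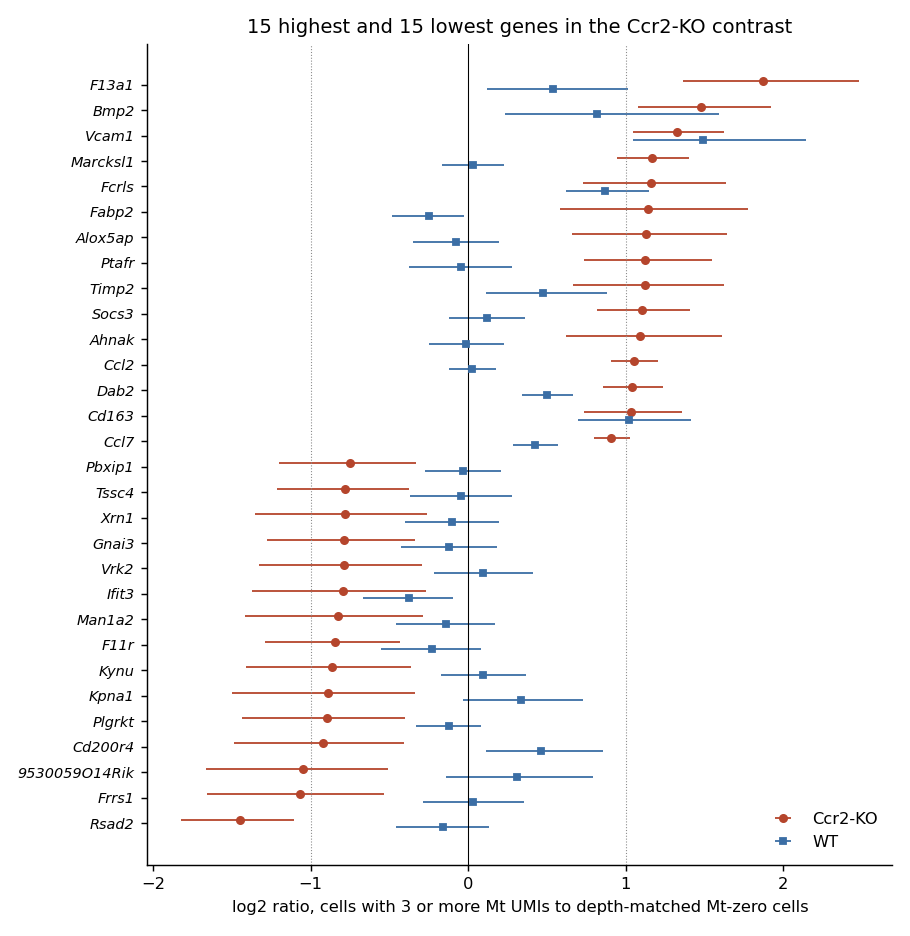
Log2 ratio of cells with 3 or more metallothionein UMIs to depth-matched Mt-zero cells for the 15 genes with the highest and the 15 with the lowest ratio in the knockout, with the same ratio in WT. Points are ratios within 1 library, bars are 95% exact intervals for counting error, and dotted lines mark 2-fold. Vcam1 and Cd163 have ratios past 2-fold in both libraries, in WT from means below the expression limit and for Cd163 in lane 1 only (1.07 and 0.21), and Ccl2 is at 1.05 in the knockout and 0.03 in WT.

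No zinc gene measured at the expression limit was past 2-fold. Slc30a1, the plasma membrane zinc exporter and itself a target of MTF-1, had 61.6 CPM in the members (48.1 to 77.9) and 64.3 CPM in the Mt-zero cells (50.4 to 80.9), a log2 ratio of -0.06 (-0.55 to 0.43). In WT, from a mean below the expression limit, Slc30a1 had 0.50 (0.10 to 0.94), with lanes at 0.82 and -0.18. Mtf1, which encodes the metal sensor, had 38 and 32 UMIs, 33.5 against 28.2 CPM (log2 0.24, -0.47 to 0.97), below the expression limit. Only 2 of the 25 zinc genes listed were measured at that limit, the other being Slc39a1 at 0.14. Of the other metallothioneins, Mt3 and Mt4 had 0 UMIs on both sides, which allows up to 2.64 CPM on each side at 3 UMIs. In the copper list 5 of 13 genes were measured, 0 past 2-fold, with a median of -0.09. The highest was Cp, the copper-carrying ferroxidase ceruloplasmin, at 154 against 101 CPM (log2 0.60, 0.26 to 0.96).

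Iron and haem genes leaned upward by less than 2-fold, apart from Cd163. Hmox1, the haem-degrading enzyme, had 178 against 112 UMIs, 157 against 98.7 CPM (log2 0.66, 0.32 to 1.02). Ferritin was higher by a small step, with Fth1 at 8525 against 7502 CPM (log2 0.18, 0.14 to 0.23) and Ftl1 at 7280 against 6081 CPM (log2 0.26, 0.21 to 0.31). Biliverdin reductase Blvrb had 0.33 (0.07 to 0.58) and the iron exporter gene Slc40a1 0.23 (0.00 to 0.46). Of 12 measured genes of 23, 9 had a positive ratio, beside 1328 of 2854 over all genes, and the median was 0.24.

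Oxidative stress and glucocorticoid genes had medians near that of all genes. Of the 11 measured NRF2 targets and oxidative stress genes 0 passed 2-fold, and the median was -0.00. Their ratios were positive for 5 and negative for 6. Hmox1, given above, was highest at 0.66 (0.32 to 1.02), followed by Sod2 at 0.56 (0.03 to 1.13), with Prdx1 at -0.14 and Sqstm1 at -0.00. Of the 10 measured glucocorticoid-induced genes only Cd163, shared with other lists, was past 2-fold, and Tsc22d3, Sgk1, Dusp1 and Per1 lay between -0.09 and 0.05. Nfkbia, also in the inflammatory list, was at 0.72 (0.58 to 0.87). The glucocorticoid list had 6 positive and 4 negative ratios and a median of 0.03. Heat shock genes had a median of -0.10 with 0 of 9 past 2-fold, and Hspa1a was lower at -0.59 (-0.87 to -0.32). The unfolded protein response list had a median of -0.15 (15 measured), the immediate-early list 0.07 (19 measured), and the integrated stress response list 0.15 (6 measured), each with 0 genes past 2-fold.

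Of the 12 measured interferon-induced genes 1 was past 2-fold lower and 0 higher, beside 3 lower and 14 higher of 2854 over all genes. Their ratios were negative for 8 and positive for 4, beside 1526 negative of 2854. The median was -0.42, and with a limit of 200 CPM it was 0.08. Rsad2, which encodes the antiviral protein viperin (chromosome 12, 26442746 to 26456452, minus strand), had 90 UMIs or 79.3 CPM in the members (63.7 to 97.4) and 247 UMIs or 218 CPM in the Mt-zero cells (191 to 246), a log2 ratio of -1.45 (-1.82 to -1.10). The share of cells with a UMI differed less, 13.3% (10.1% to 17.1%) against 15.9% (12.4% to 20.0%), and 1 Mt-zero cell held 18.2% of the UMIs on its side. Ifit3 had -0.80 (-1.37 to -0.27), Isg15 -0.62 and Cxcl10 -0.54, whereas Irf1 had 0.34 and Ifitm3 0.40.

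The MHC class II and lysosome groups leaned downward by small amounts without a gene past 2-fold. All 8 measured MHC class II genes had negative ratios, beside 1526 of 2854 over all genes. They ran from -0.56 for the transactivator gene Ciita to -0.01 for H2-DMb1, which changes sign once the -0.02 of all genes is taken off. The median was -0.13, and at 1000 UMIs per cell it was 0.01. The 18 measured lysosome genes had a median of -0.11, the lowest being the saposin precursor gene Psap at -0.36. Beyond Rsad2, the genes past 2-fold lower were Frrs1, a ferric reductase gene (41 against 87 UMIs, log2 -1.07, -1.66 to -0.53), and the non-coding RNA gene 9530059O14Rik (39 against 82 UMIs, log2 -1.05, -1.66 to -0.51). The remaining 12 of the 15 lowest genes lay between -0.92 and -0.75, among them the kynureninase gene Kynu and the junctional adhesion gene F11r.

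Markers of other cell types were checked on both sides of the pairs. Enterocyte markers moved with the members: summed over 13 genes they stood at 204 CPM against 78.4 CPM, and 14 members against 5 Mt-zero cells held 3 or more of their UMIs. Fabp2, an intestinal fatty acid-binding protein gene of enterocytes and the only such marker past the expression limit, had a log2 ratio of 1.14, but 1 member held 35.8% of its UMIs on that side. Fabp1 had 76 against 25 UMIs, while Alpi and Reg3g were at 0 in all members and Epcam had 1 UMI. Haemoglobin and other erythroid markers were even, at 473 and 461 CPM, as were plasma cell markers at 194 and 200 CPM. T cell or innate lymphoid markers had 2 and 6 UMIs, goblet cell markers 1 and 19, and mast cell markers 2 and 5. Leaving out every cell with 3 or more UMIs of any other type's markers, which took 326 members and most often through the neutrophil list (167 members, Mmp9 being its abundant gene here) and the erythroid list (139), left 203 pairs. In these 31 genes were past 2-fold higher and 25 lower, with an SD over genes of 0.39 beside 0.28 in the 383 pairs. The log2 ratio of F13a1 was 3.58, given without an interval. That of Fabp2 was 0.23, but Fabp2 is on the enterocyte list by which cells were left out. Its fall was therefore built into the removal and is not a result.

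The named genes did not climb evenly with the load. Over all gated knockout cells without matching, F13a1 was at 37.1 CPM in Mt-zero cells, 45.3 with 1 to 2 UMIs, 37.2 with 3 to 4, 93.6 with 5 to 9 and 248 (206 to 297) with 10 or more. Vcam1 was at 128, 151, 185, 187 and 589 CPM in the same order, so that its step lay between the last groups. Dab2 went from 314 to 485, 481 and 910 CPM over Mt-zero cells and the member groups, and Ccl2 from 639 to 650, 945 and 1308 CPM. Slc30a1 was between 64.8 and 71.9 CPM up to 9 UMIs and at 34.6 CPM (20.2 to 55.4, 17 UMIs) with 10 or more. F13a1 and Ccl2 in members with 3 to 4 UMIs were thus at the level of Mt-zero cells, while Vcam1 and Dab2 were already above it. These groups also differ in depth, from a median of 1829 to 3929 UMIs.

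**Figure D3:**
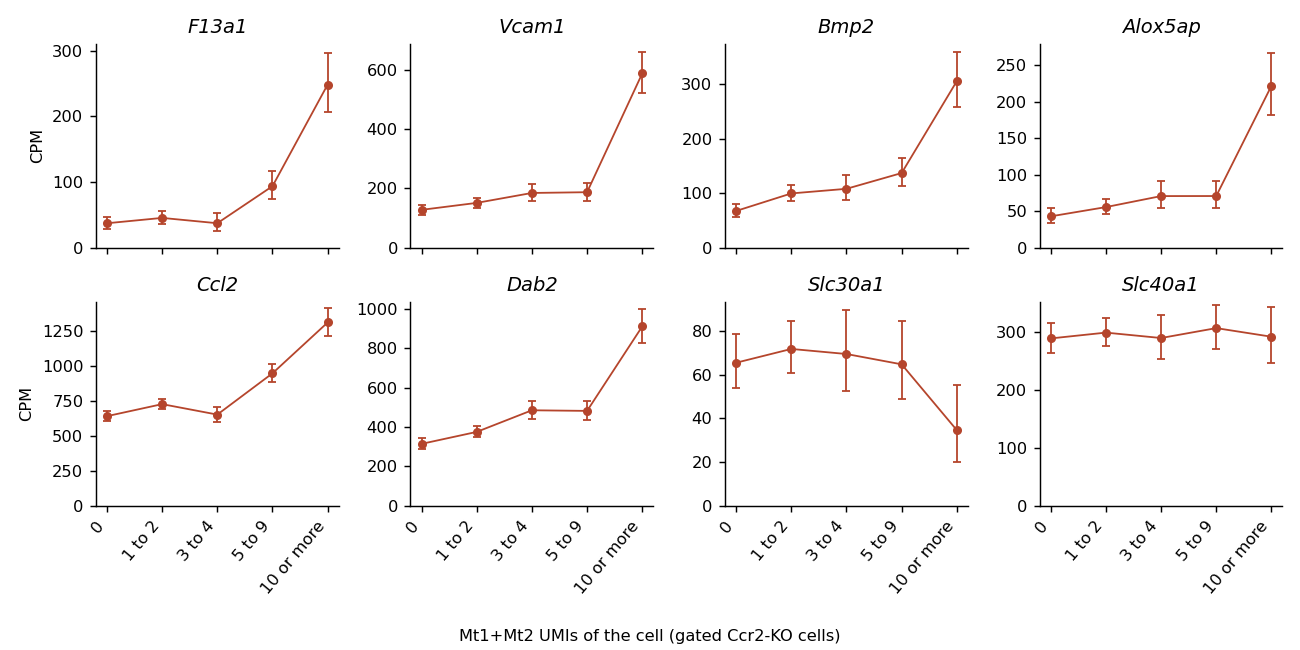
Level (CPM) of 8 genes in gated knockout cells grouped by their Mt1 and Mt2 UMIs, with 95% Poisson intervals, for 819, 773, 266, 225 and 125 cells from left to right. F13a1, Vcam1, Bmp2 and Alox5ap step up in the cells with 10 or more UMIs, and the iron exporter gene Slc40a1 stays between 288 and 306 CPM.

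The 122 members with 10 or more UMIs that found a depth match were also compared with their own pairs, a group chosen after values had been seen. Of 2767 genes 58 were past 2-fold higher (2.1%) and 55 lower (1.99%), with an SD over genes of 0.48. Sums over 122 pairs are smaller than over 383, and how much of these counts is counting error was not tested. The resident macrophage list stood at a median of 1.04, with 5 of 10 measured genes past 2-fold higher. Cbr2, a carbonyl reductase gene of that list, led with 48 against 3 UMIs (log2 3.80, 2.36 to 6.33), followed by Vcam1 at 2.95 and F13a1 at 2.87.

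Clustering of the gated knockout cells without the rule's genes placed the members in every cluster but unevenly. Of 7 clusters, given by number only, cluster 2 held 109 members among 171 cells, or 63.7% (56.1% to 70.9%), and the others between 16.9% and 34.7%. Cluster 2 had 17.7% of the members and 58.8% of all Mt2 UMIs of the gated knockout cells. Mt1 stood at 2100 CPM in it and Mt2 at 410 CPM, and 42.1% of its cells held Mt2 (34.6% to 49.9%), against 0% to 11.1% of the cells of the other clusters. Its median depth was 3149 UMIs, close to the 3160.5 of cluster 5, in which 34.7% of cells were members and 3.10% held Mt2. The genes by which cluster 2 stood out, led by Cbr2, Ch25h and F13a1, defined it and are not a result.

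**Figure D4:**
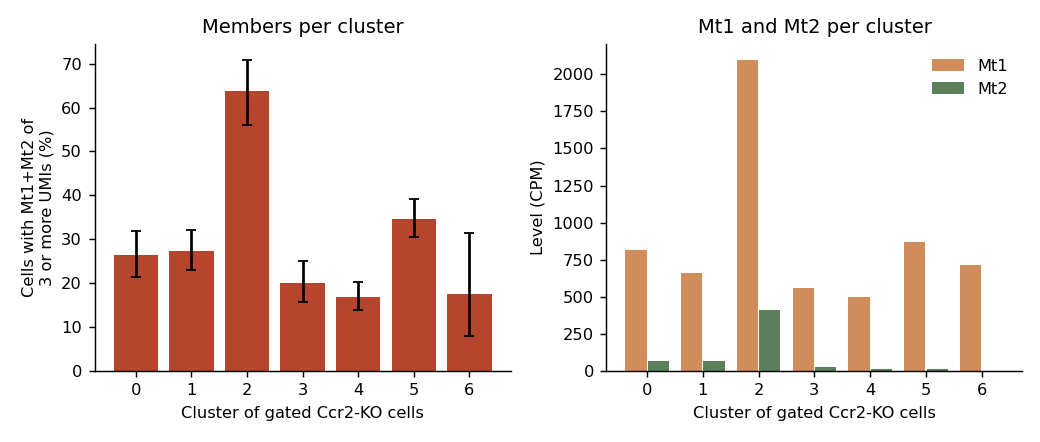
Share of cells with 3 or more metallothionein UMIs (left, %, with 95% Clopper-Pearson intervals) and the levels of Mt1 and Mt2 (right, CPM) in the 7 clusters of gated knockout cells. Cluster 2 has the highest share at 63.7% and the highest Mt2 at 410 CPM, while 82.3% of the members lie in other clusters.

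When pairs were formed within clusters, the ratios of the highest genes became smaller and those of the lowest genes changed less. In 332 pairs matched on depth and cluster, 2 genes were past 2-fold higher and 0 lower. These 2 were Fabp2 at 1.32 and the chemokine gene Ccl5 at 2.50 (95 against 16 UMIs). F13a1 then had a log2 ratio of 0.21 (-0.40 to 0.83), Cd163 0.02 (-0.32 to 0.36), Ccl7 0.04 (-0.08 to 0.16) and Ccl2 0.14 (-0.02 to 0.30), where depth alone had given 1.87, 1.04, 0.91 and 1.05. Of the 15 highest genes 9 kept intervals above 0, among them Socs3 at 0.73 (0.42 to 1.05), Vcam1 at 0.58 (0.27 to 0.90), Dab2 at 0.51 (0.31 to 0.71) and Bmp2 at 0.53 (0.09 to 0.99). The median of the 15 was 0.48, where depth alone had given 1.12. Of the 15 lowest genes 10 kept intervals below 0, and their median was -0.67 in place of -0.85. Rsad2 had -0.72 (-1.06 to -0.40), Ifit3 -0.90 (-1.55 to -0.30), the importin gene Kpna1 -0.96 (-1.65 to -0.33) and Gnai3, a G protein subunit gene, -0.76 (-1.27 to -0.29). With cluster 2 left out altogether, 343 pairs gave 4 genes past 2-fold higher, Fabp2 (1.32), Bmp2 (1.22), Ptafr (1.15) and Mxi1 (1.04), and 1 lower, Rsad2 (-1.29), while F13a1 was at 0.63. Ccl5 and Mxi1 were named after their values were seen. The clusters were built from the same genes, so matching within them removes by construction differences that separate clusters. Cluster 2 held 109 members and 23 Mt-zero cells, so at most 23 of its members could be paired there. How much each of these lowered the ratios was not tested.

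**Figure D5:**
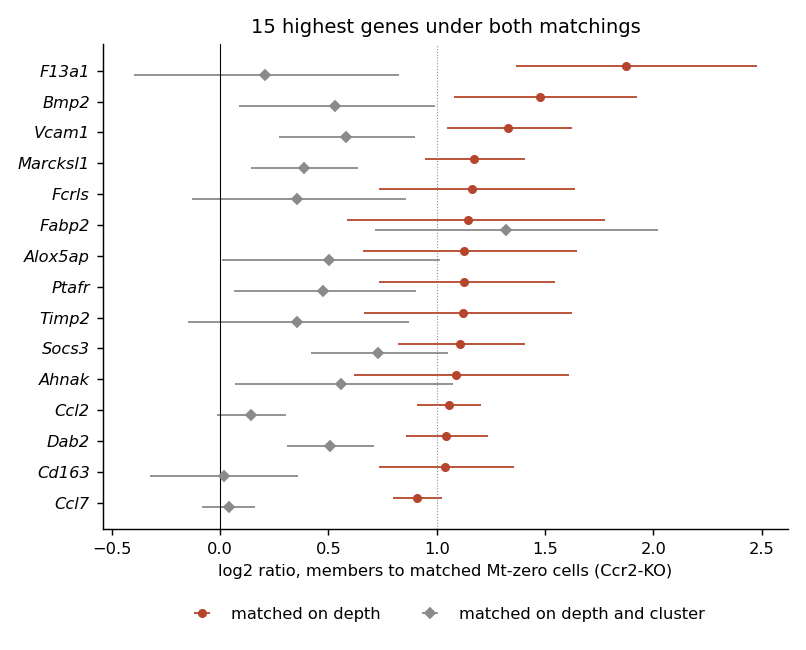
Log2 ratio of members to Mt-zero cells for the 15 highest genes of the knockout comparison, with pairs matched on depth (383 pairs) and on depth and cluster (332 pairs), with 95% exact intervals for counting error. Within clusters Cd163, Ccl7 and Ccl2 lie near 0, and Fabp2 is at 1.32.

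Members with an Mt2 UMI were also compared with members without one. In 142 pairs of members matched on depth (medians 3507.5 and 3480.5 UMIs), 46 of 2807 genes were past 2-fold higher with Mt2 (1.64%) and 71 lower (2.53%), with an SD over genes of 0.46. Fewer pairs give smaller sums and wider counting error, so these counts cannot be set against those of the 383 pairs. How much of them is counting error was not tested. F13a1 was found in 45.8% of the members with Mt2 and 12.7% of those without, at 269 against 65.4 CPM (log2 2.03, 1.48 to 2.64). Vcam1 was at 600 against 208 CPM (log2 1.52, 1.20 to 1.86), Bmp2 at 378 against 133 CPM and Hmox1 at 275 against 107 CPM (log2 1.36, 0.90 to 1.84).

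On the lower side of that comparison stood Cd9, a tetraspanin gene (57 against 148 UMIs, log2 -1.37), Il1r2, the decoy receptor for interleukin 1 (41 against 114 UMIs, log2 -1.46), and Ocstamp, a gene of cell fusion in osteoclasts (18 against 69 UMIs, log2 -1.91). The enterocyte genes Fabp1 and Fabp2 had fewer UMIs as well, 10 against 54 (log2 -2.38) and 14 against 54 (log2 -1.91). The shares of cells holding them differed little, 6.34% against 8.45% for Fabp1 and 9.15% against 10.6% for Fabp2, with overlapping intervals. Members with Mt2 carried a greater metallothionein load, with medians of 8 and 5 UMIs. The 338 members without Mt2 that were matched to Mt-zero cells had 1 gene past 2-fold higher, Fabp2 at 1.52, and 1 lower, Rsad2 at -1.34.

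Of the 14 genes past 2-fold higher in the members, 10 had a RefSeq promoter window, and 4 of these held a metal response element core, or 40.0% beside 28.2% of all genes. The Slc30a1 window held 2 matches and the Mtf1 window 0. With 10 genes this share is a description only.

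The same comparison was made in the WT library as a second, separate contrast, with cells that were more than 2-fold deeper. In 586 pairs 3 of 2540 genes were past 2-fold higher (0.118%) and 0 lower (0%), with an SD over genes of 0.17. The 3 were the chemokine gene Ccl24 (log2 1.04, 0.85 to 1.26), Hmox1 (1.04, 0.80 to 1.32) and the growth factor gene Pgf (1.01, 0.73 to 1.34), for which the knockout had 0.29, 0.66 and 0.27. The lanes, each matched on its own (398 and 183 pairs), had 1.22 and 0.77 for Ccl24, 1.28 and 0.32 for Hmox1, and 1.26 and 0.43 for Pgf, so that all 3 genes were past 2-fold in lane 1 and none in lane 2. Slc40a1, with a mean below the expression limit in WT, had 254 against 98 UMIs there (log2 1.34, 1.03 to 1.72; lanes 1.59 and 0.75), beside 0.23 in the knockout.

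Of the 15 highest genes of the knockout contrast 11 had a positive ratio in WT, and of the 15 lowest 9 had a negative one. Among all 2540 genes measured in WT 1452 ratios were positive and 1088 negative. In the lanes 13 and 11 of the highest were positive, and 8 and 6 of the lowest were negative. Vcam1 had 1.49 in WT (1.05 to 2.15), from a mean below the limit of 50 CPM there, with 1.26 and 1.69 in the lanes. Cd163, also below the limit in WT, had 1.02 (0.69 to 1.41), with 1.07 in lane 1 and 0.21 (-0.45 to 0.89) in lane 2. Fcrls had 0.87, with 0.92 and 0.28 in the lanes. F13a1 had 0.54 in WT (0.12 to 1.01), with 1.03 and -0.81 in the lanes, so that the lanes went opposite ways. Alox5ap had -0.08 in WT, with lanes at 0.23 (-0.09 to 0.57) and -0.75 (-1.30 to -0.24). Ccl2 (0.03, lanes 0.03 and -0.26), Marcksl1 (0.03, lanes 0.15 and 0.01), Ptafr (-0.05, lanes -0.05 and -0.28) and Ahnak (-0.01, lanes 0.02 and 0.15) were near 0 in WT. The resident macrophage list had a median of 0.56 in WT with 6 of 6 measured genes positive, and 0.63 and 0.28 in the lanes. Timd4, below the expression limit in WT, had 0.59 there, with 1.01 in lane 1 and 0.19 (-0.44 to 0.82) in lane 2, where the knockout had -0.48. Whether the libraries differed in these ratios was not tested.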

How the data were processed

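Single-cell UMI counts were read for 1 Ccr2-KO and 1 WT library. The deposited matrices hold whole-number counts per gene and cell, not normalised. The submitters' processing notes name Cell Ranger 3.0.1 and mm10, without their roles. Of 27998 gene identifiers 98.7% were found in GENCODE M21 (GRCm38), which gave gene coordinates. UMI counts from 3′ ends cannot always separate near-identical copies of a gene.

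The members and gene lists were chosen with earlier results of these data known. Genes of the rule (18) were left out of the totals, and a cell's depth after that was matched within 0.05 on the log10 scale, closest pairs first, each Mt-zero cell used once. The plan asked for the largest of 1, 2 or 3 matches that 95% of the members could find; 62.2% found 1, so 1 was used and 233 members were left out. Genes needed a mean of 50 CPM. Named genes were the 15 highest and 15 lowest ratios whose share of cells went the same way, the extremes of each list, and the metallothionein, Mtf1 and Slc30a1 genes. Sums carry 95% Poisson intervals, shares Clopper-Pearson intervals, and ratios an exact binomial interval of the split of UMIs. Clusters came from scanpy 1.11.5 and igraph 0.11.9 (2000 variable genes, 30 components, 15 neighbours, Leiden resolution 0.8). Doublets were scored with Scrublet and kept: 21 members and 10 Mt-zero cells were among the highest scores, and removing these was an alternative. The comparison was tested on simulated counts. Some listed genes were not analysed here.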

Additional observations from a re-analysis of the deposited data

Results flagged for a closer look

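For 2 of the named genes the ratio of metallothionein-high to depth-matched Mt-zero cells had opposite signs in the libraries, with intervals on either side of 0. Fabp2, an enterocyte gene, had a log2 ratio of 1.14 in the knockout (0.59 to 1.78) and -0.25 in WT (-0.48 to -0.03), and the WT lanes themselves went opposite ways at -0.91 and 1.67. In the knockout 1 member held 35.8% of the Fabp2 UMIs of the members, which the interval does not take into account. The shares of cells with a Fabp2 UMI were close, 9.66% (6.89% to 13.1%) of members and 7.05% (4.70% to 10.1%) of Mt-zero cells. Cd200r4, a gene of the CD200 receptor family, had -0.92 in the knockout (-1.48 to -0.41) and 0.47 in WT (0.11 to 0.85), with 0.41 in both WT lanes. With 1 library per genotype the difference between the libraries was not tested for either gene.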

How the results depend on the processing

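The share of gated cells with 3 or more UMIs was 30.9% in the knockout and 32.4% in WT with a stricter cell filter, 9.82% and 2.08% at 1000 UMIs per cell, 34.3% in WT with a C1q limit of 1%, and 8.37% in WT with a limit of 0.1% of UMIs. The counts of genes past 2-fold, 14 higher and 3 lower, became 5 and 1 without matching, 18 and 13 at 1000 UMIs, 2 and 0 within clusters, 16 and 7 with 5 or more UMIs, 4 and 0 with 2 or more, 7 and 2 with 0.1% of UMIs, 21 and 29 with a C1q limit of 1% (121 pairs), 31 and 25 without cells holding markers of other types, 9 and 1 with a pseudocount of 10 CPM, 110 and 93 at a mean of 10 CPM, and 4 and 0 at 200 CPM. Alternatives added after seeing the data gave 58 and 55 with 10 or more UMIs, 4 and 1 without cluster 2, 1 and 1 without Mt2, and 8 and 0 with all members weighted by depth bin. Matching within clusters removes differences between clusters by construction and also leaves out most members of cluster 2. The cause of these shifts was not tested. Of 570 alternative values of the 30 highest and lowest genes 569 kept their sign, the exception being Plgrkt at 0.04 with a C1q limit of 1%. These genes were picked as the extremes of this comparison, and the changes of pseudocount and expression limit used the same pairs. Part of this count was therefore fixed in advance. Of 323 alternative medians of 17 gene lists 276 kept their sign and 47 did not, most often for the lipid and oxidative stress lists (11 of 19 each). Taking 1 matched cell per member was the comparison itself and was not run apart. No paired analysis was possible because the groups hold 1 library each. At a given metallothionein share a shallow cell reaches 3 UMIs less often than a deep one.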

Other observations

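Among gene groups not described so far, ribosomal protein genes had positive ratios in 79 of 90 measured genes in the knockout (median log2 0.08) and negative ratios in 89 of 91 in WT (median -0.17, lanes -0.20 and -0.09), with 0 past 2-fold in either. The name pattern of that list also takes S6 kinase genes. The 10 measured lipid-handling genes had 4 positive and 6 negative ratios in the knockout, 0 past 2-fold, and a median of -0.04. Cd36, a receptor for oxidised lipids and fatty acids, was at 197 against 107 CPM in the knockout (log2 0.87, 0.55 to 1.21) and had 0.65 in WT (lanes 0.55 and 0.71), from a mean below the expression limit there, and the cholesterol exporter gene Abca1 was at 199 against 123 CPM (0.69, 0.38 to 1.01) and had 0.25 in WT (lanes 0.10 and 0.30). Plin2, a lipid droplet coat gene, was lower in the knockout at -0.46 (-0.66 to -0.26) and had 0.23 in WT (lanes 0.24 and 0.17). Cdkn1a, the cell cycle inhibitor, had 0.40 (0.22 to 0.59) in the knockout and 0.57 in WT (lanes 0.91 and 0.45). The immediate-early genes were positive in 15 of 19 in the knockout and in 17 of 17 in WT, with medians of 0.07 and 0.28 (WT lanes 0.24 and 0.32). Over all genes 1328 of 2854 ratios were positive in the knockout and 1452 of 2540 in WT.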
